A study of Mus musculus with 18 samples.

Results

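The cytochrome P450 genes measured in mouse kidney after cold-storage kidney transplantation numbered 34 of the 15278 genes tested. They were the rows of the expression table with a P450 symbol, pseudogenes left out, that reached 1 FPKM (reads per gene corrected for its length and for library size) in at least 3 of 18 libraries. The table held 131 P450 rows, of which 30 were pseudogenes; 60 others did not reach that level, with 31 of them at 0 in every library, and 7 further P450 genes that did reach it are not described here. The 34 genes, all protein coding, fall into 8 families and 19 subfamilies, with 17 genes in the Cyp2 family and 11 in the Cyp4 family. They include 24 genes at 1 FPKM or more in all 18 libraries. The nearest genes outside were Cyp1a1, whose highest value was 1.86 FPKM in 1 library at 1 or more, and Cyp2c68, with 1.31 FPKM, also in 1 library. The lowest inside was Cyp46a1, which reached 1 FPKM in 3 libraries.

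Kidney RNA was sequenced in 6 groups of 3 libraries: cold-storage-associated transplantation, in which the donor kidney is kept cold before it is implanted, at days 1, 7 and 14, and sham surgery at days 1, 7 and 14. All 18 libraries are labelled wild type and mouse kidney, with total RNA extracted by Trizol from the renal cortex. Other label fields give rat proximal tubular cells (RPTCs) and streptozotocin diabetes with ischemia-reperfusion, for transplant and sham alike, which do not match the titles that set these groups, and strain, sex, donor, recipient and time in the cold are not stated in them. Whether the 3 libraries of a group are 3 animals is not stated either, and the p-values therefore reflect variation among libraries that may be technical.

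Cytochrome P450 enzymes are heme proteins that insert an oxygen atom into lipids, steroids, vitamins and foreign compounds, taking electrons from a partner reductase. In the kidney most P450 protein lies in the proximal tubule, where Cyp2c and Cyp2j enzymes turn arachidonic acid into epoxides and Cyp4a enzymes hydroxylate fatty acids at the far end of the chain, products known to act on vessel tone and salt transport. In mouse kidney several P450 genes, among them Cyp4b1 and Cyp2e1, are known to be expressed at higher levels in males under the control of androgen.

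FPKM sums per library lay between 386876 and 524362, and sequencing depth is unknown. Every proximal tubule marker of a list of 10 was detected in the libraries, and of 5 liver markers Cps1 and Ahsg were at 0 in all 18 libraries. The other 3, Ttr, Serpina1a and Alb, were detected, and the list summed to 17.7 to 24.6, 9.49 to 12.5 and 41.7 to 71.7 FPKM in transplant libraries at days 1, 7 and 14, against 67.9 to 74.5, 61.0 to 66.1 and 57.8 to 61.5 FPKM in sham libraries. The 4 Y-linked genes checked summed to between 41.2 and 81.7 FPKM, and Xist lay between 0 and 0.0563 FPKM. Log2(FPKM + 1) was fitted over all 15278 genes with limma, and a gene is said to be called, to rise or to fall where its Benjamini-Hochberg adjusted p is below 0.05. This scale understates changes of genes near or below 1 FPKM. The median log2 fold change over all genes on days 1, 7 and 14 was 0.31, 0.41 and 0.27, against 0.03, 0.02 and 0.02 once libraries were scaled by median of ratios, so calls that depend on this scaling are named as such.

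The summed P450 level was lower in every transplant library than in any sham library. At day 1 the 34 genes summed to 1235 ± 217 FPKM in transplanted kidneys and 3545 ± 56.9 FPKM in sham kidneys (SD, n = 3 each, as for every mean below). At day 7 the sums were 926 ± 62.4 FPKM after transplantation and 3098 ± 74.5 FPKM after sham surgery. At day 14 they were 1196 ± 81.2 FPKM after transplantation and 3213 ± 135 FPKM after sham surgery. The transplant sum was therefore 34.8%, 29.9% and 37.2% of the sham mean at days 1, 7 and 14. An exact permutation test of 3 libraries against 3 cannot go below p = 0.10, so the sum was not tested. In whole tissue, fewer cells of a type and less RNA per cell cannot be told apart.

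The 10 proximal tubule markers summed to less than in sham at all 3 days, as the P450 genes did, but on another course. They totalled 649 to 1187 FPKM in transplant libraries against 4728 to 4882 FPKM in sham libraries at day 1. At day 7 the totals were 1614 to 1742 FPKM in transplant libraries and 4359 to 4713 FPKM in sham libraries. At day 14 they were 2251 to 3256 FPKM in transplant libraries and 4401 to 4769 FPKM in sham libraries. As a share of the sham mean, the markers stood at 18.9%, 37.2% and 62.0% at the 3 days, with 10, 8 and 5 of the 10 called lower, or 10, 10 and 6 with median-of-ratios scaling. The P450 sum showed no such steady increase with Cyp4b1 in it, but without Cyp4b1 the other genes stood at 0.427, 0.457 and 0.572 of the sham mean. Their part in the P450 results was not tested.

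**Figure D1:**
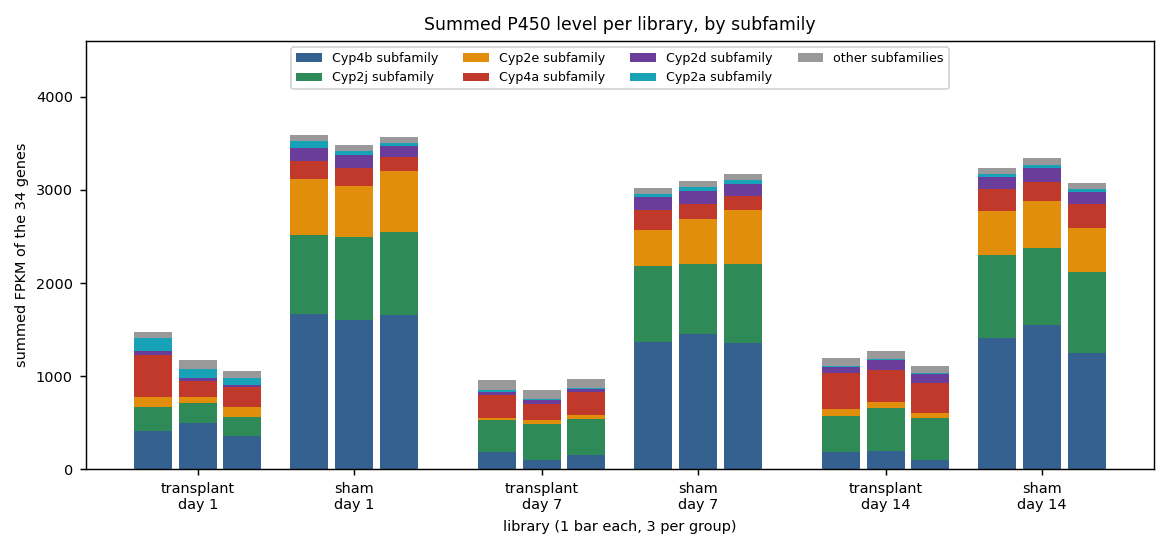
Summed FPKM of the 34 P450 genes (y axis) in each of the 18 libraries (1 bar each), transplant left of sham at days 1, 7 and 14, with colours for 6 subfamilies and grey for the other subfamilies. All 9 transplant bars end at or below 1475 FPKM and all 9 sham bars at or above 3025 FPKM, and the Cyp4b, Cyp2j and Cyp2e segments make up most of the sham bars.

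Sham kidneys drew their P450 transcripts from few genes. Cyp4b1, Cyp2j5 and Cyp2e1 together made up 54.4% ± 5.71 of the sum in transplant libraries at day 1, against 80.8% ± 1.43 in sham libraries. Their share was 49.2% ± 1.52 at day 7 after transplantation and 79.0% ± 1.68 after sham surgery. At day 14 it was 46.8% ± 1.14 after transplantation and 77.8% ± 1.41 after sham surgery. Over the 9 sham libraries, 5 of the 34 genes had a median of at least 100 FPKM, 14 of at least 10 FPKM, and 4 were below 1 FPKM. Between sham groups limma called none of the 34 genes in any of the 3 pairs of days, where 0, 0 and 1 of all genes were called (0%, 0% and 0.00655%); an unadjusted p below 0.05 was reached by 0 members for day 7 against day 1, 1 for day 14 against day 7 and 3 for day 14 against day 1.

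After transplantation 9 of the 34 genes were called higher and 11 lower at day 1, where 29.6% of all genes were called higher and 9.56% lower. At day 7 the counts were 9 higher and 11 lower, beside 35.5% and 6.01% of all genes. At day 14 they were 6 higher and 9 lower, beside 22.3% and 5.12% of all genes. With median-of-ratios scaling the counts were 6 higher and 11 lower, 6 higher and 14 lower, and 5 higher and 11 lower at the 3 days, beside 14.7% higher and 15.5% lower, 11.6% and 12.8%, and 11.4% and 11.2% of all genes. The median log2 fold change of the 34 genes was 0.09, -0.25 and 0.03, below the medians of all genes given above. A filter on low values that a gene can pass through one group alone bears on these counts.

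Falls were called at all 3 days for 7 genes, Cyp4b1, Cyp2e1, Cyp2d9, Cyp2j5, Cyp2j11, Cyp2j13 and Cyp27a1, and rises at all 3 days for 4, Cyp4a14, Cyp1b1, Cyp2s1 and Cyp4v3. Cyp2a5 was called in both directions, higher at day 1 and lower later, and 8 genes were called at no day. The share of all genes tested with each of these patterns was not counted, so these numbers cannot be compared with it. With the genes divided at a mean of 20 FPKM over all 18 libraries, a level chosen after the values were seen, 7, 8 and 8 of the 11 genes at or above it fell at days 1, 7 and 14, and 3, 1 and 1 rose; with median-of-ratios scaling 7, 10 and 8 fell and 1, 1 and 1 rose. Of the 23 genes below it, 4, 3 and 1 fell and 6, 8 and 5 rose, or 4, 4 and 3 fell and 5, 5 and 4 rose with that scaling. All genes tested were not divided in this way, so the split cannot be read as particular to P450 genes. The 3 transplant libraries all lay below the 3 sham libraries in 11, 12 and 11 of the 34 genes, where 11.9%, 8.74% and 7.32% of all genes did so, and all above in 9, 11 and 9, beside 37.9%, 48.5% and 31.5%.

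**Figure D2:**
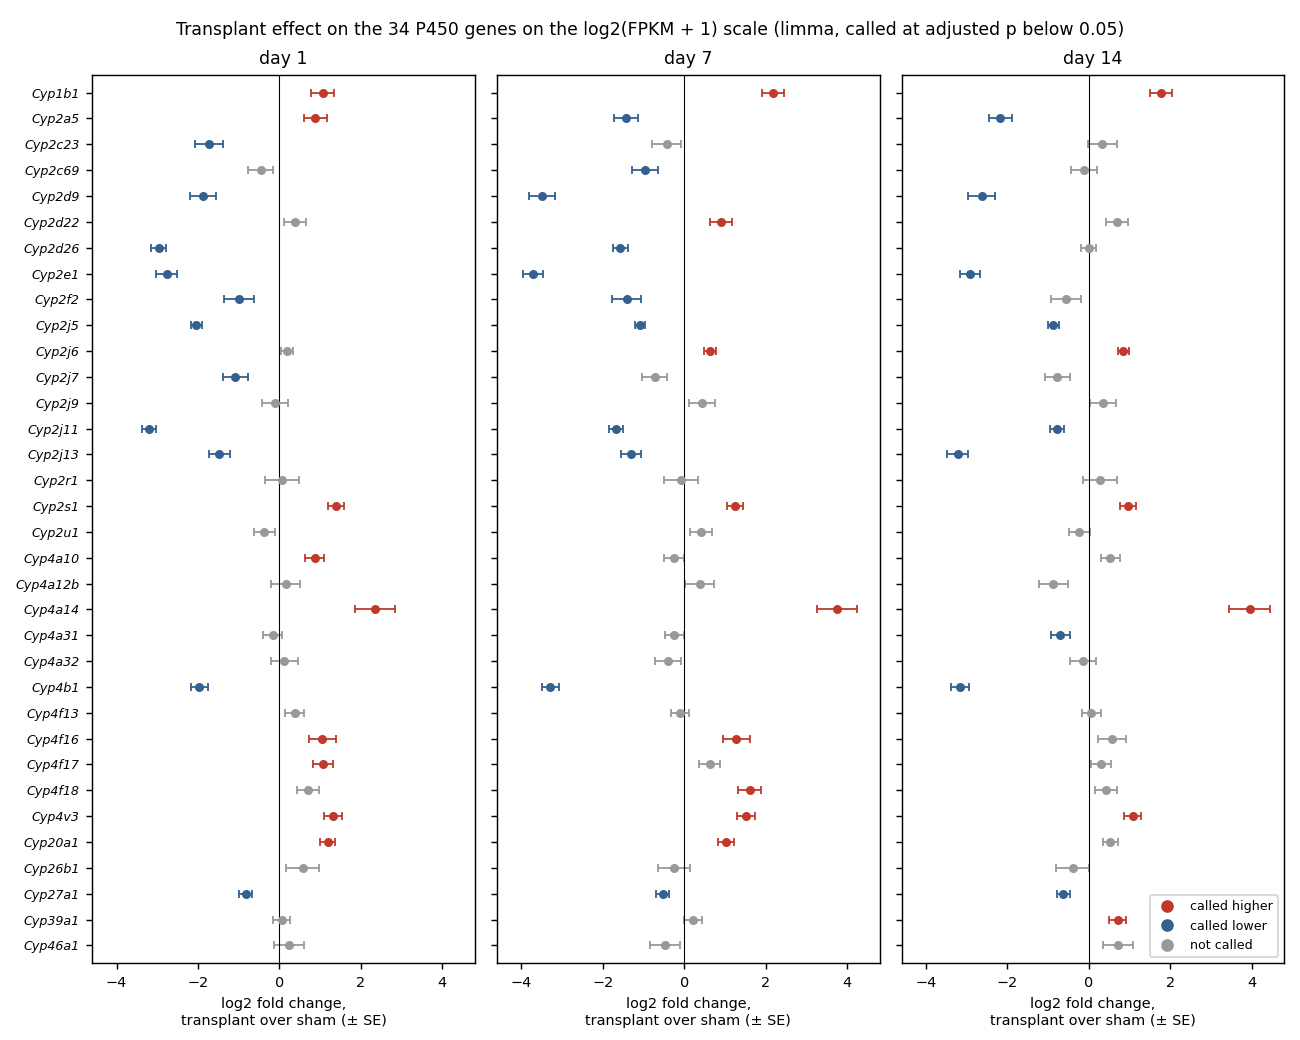
Log2 fold change of transplant over sham on the log2(FPKM + 1) scale (x axis; whiskers, standard error) for the 34 P450 genes (y axis, by family and subfamily) at days 1, 7 and 14, with genes called higher in red, called lower in blue and not called in grey (limma). Cyp4a14 reaches 3.95 at day 14 and Cyp2e1 -3.71 at day 7, and the Cyp2j genes lie on both sides of 0.

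Cyp4b1, a P450 of the Cyp4 family that hydroxylates fatty acids and some foreign compounds, was the most abundant P450 gene in sham kidneys. At day 1 it had 417, 497 and 358 FPKM in transplant libraries, against 1672, 1605 and 1661 FPKM in sham libraries. At day 7 the values were 189, 99.6 and 152 FPKM after transplantation, against 1371, 1451 and 1355 FPKM after sham surgery. At day 14 they were 184, 194 and 106 FPKM after transplantation, against 1409, 1552 and 1254 FPKM after sham surgery. No transplant library came near a sham library, and the transplant libraries were lower still at the later days. Its log2 fold change was -1.97, -3.28 and -3.16 at the 3 days (SE 0.22; limma adjusted p = 1.23e-06, 4.68e-09 and 1.99e-08). The effect at day 7 was 1.32 log2 units below that at day 1 (adjusted p = 0.0176), and that at day 14 was 1.19 below it (adjusted p = 0.0177), calls that were lost when no filter on low genes was used (adjusted p = 0.0693 and 0.0647).

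Cyp4b1 lies at chr4:115624725-115647723 on the minus strand (GRCm38) and shared 10.3% of its 50-base stretches with 2 pseudogene copies. One of them, Cyp4b1-ps1, was listed at 4.66, 0 and 10.3 FPKM in the transplant libraries of day 1, against 0, 29.6 and 32.9 FPKM in the sham libraries. It was listed at 0 in the 3 transplant and 3 sham libraries of day 7. The other copy, Cyp4b1-ps2, had 1.44 to 11.6 FPKM over the 9 transplant libraries and 14.1 to 45.3 FPKM over the 9 sham libraries. Even the highest of these values was small beside Cyp4b1 itself, although reads of the copies and of Cyp4b1 may have been split between them.

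Cyp2e1, which oxidises ethanol and small solvents, was the third most abundant and fell at all 3 days. At day 1 Cyp2e1 had 101, 63.4 and 103 FPKM after transplantation, against 606, 548 and 654 FPKM after sham surgery. At day 7 transplant libraries held 21.1, 40.5 and 52.3 FPKM, against 386, 488 and 573 FPKM in sham libraries. At day 14 transplant libraries held 74.1, 60.9 and 53.4 FPKM, against 463, 505 and 471 FPKM in sham libraries. The groups did not overlap at any day, and the transplant level was 14.8%, 7.87% and 13.1% of the sham mean. Log2 fold changes were -2.77, -3.71 and -2.93 (SE 0.25; limma adjusted p = 1.03e-07, 5.91e-09 and 2.75e-07), and the difference between days was not called (adjusted p = 0.165, 0.389 and 0.843).

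The Cyp2d genes, a cluster on chromosome 15, took different courses. Cyp2d9, known in mouse as a male-biased steroid 16-alpha hydroxylase, had 23.8, 19.1 and 9.88 FPKM in transplant libraries at day 1, against 79.0, 70.5 and 46.2 FPKM in sham libraries. At day 7 Cyp2d9 had 1.93, 7.13 and 6.02 FPKM after transplantation, against 61.4, 68.2 and 53.5 FPKM after sham surgery. At day 14 it had 7.54, 10.9 and 7.99 FPKM after transplantation, against 56.0, 55.2 and 67.6 FPKM after sham surgery. Cyp2d9 stayed below every sham library at all 3 days, with log2 fold changes of -1.88, -3.49 and -2.64 (SE 0.33; limma adjusted p = 0.000168, 3.36e-07 and 1.41e-05). It shared 29.0% of its 50-base stretches with other Cyp2d genes, so its reads may have been split between them.

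Cyp2d26, a neighbouring gene of the same subfamily, fell at day 1 and was back among the sham values at day 14. At day 1 Cyp2d26 had 8.45, 7.00 and 5.38 FPKM after transplantation, against 60.6, 60.3 and 60.3 FPKM after sham surgery. At day 7 the transplant values were 18.9, 25.9 and 21.6 FPKM, against sham values of 72.0, 61.6 and 68.7 FPKM. At day 14 the transplant values were 50.7, 88.6 and 81.4 FPKM, against sham values of 70.0, 83.4 and 64.0 FPKM. The groups lay far apart at day 1, apart at day 7 and overlapped at day 14. On the log2 scale the fold changes were -2.97, -1.57 and -0.01 (SE 0.19; limma adjusted p = 1.64e-09, 5.23e-06 and 0.979), and the interval of the last ran from -0.40 to 0.38.

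The effect on Cyp2d26 differed between all 3 pairs of days, by 1.40 log2 units for day 7 against day 1, 1.56 for day 14 against day 7 and 2.96 for day 14 against day 1 (SE 0.27; limma adjusted p = 0.00412, 0.00789 and 1.99e-06). At these contrasts 4.37%, 0.615% and 10.3% of all genes were called in either direction, and 5, 2 and 8 of the 34 P450 genes. The second of the 3 calls was lost with no filter on low genes (adjusted p = 0.0564). Cyp2d22, the remaining Cyp2d gene, averaged 10.1 ± 2.56 FPKM in transplanted kidneys and 4.95 ± 1.58 FPKM in sham kidneys at day 7, a log2 fold change of 0.90 (SE 0.27; adjusted p = 0.0135). That call was lost with median-of-ratios scaling (0.47, adjusted p = 0.209), without transplant replicate 1 (adjusted p = 0.0706) and without sham replicate 2 (adjusted p = 0.0679). Cyp2d22 was not called at day 1 (log2 fold change 0.37) or day 14 (0.68).

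Cyp2a5, known in mouse as coumarin 7-hydroxylase, went opposite ways at the first and the later days. At day 1 Cyp2a5 had 137, 97.4 and 70.4 FPKM after transplantation, against 73.8, 49.9 and 39.6 FPKM after sham surgery. At day 7 it had 21.1, 12.7 and 12.9 FPKM in transplant libraries, against 38.2, 46.3 and 43.2 FPKM in sham libraries. On day 14 it had 6.35, 10.2 and 3.94 FPKM in transplant libraries, against 30.98, 37.8 and 29.6 FPKM in sham libraries. The groups overlapped at day 1, and every transplant library was below every sham library later. The limma fit gave log2 fold changes of 0.88, -1.43 and -2.18 (SE 0.29; limma adjusted p = 0.0201, 0.000817 and 2.47e-05). The call at day 1 was lost with median-of-ratios scaling (0.50, adjusted p = 0.216), with no filter (adjusted p = 0.0703), without transplant replicate 1 (0.64, adjusted p = 0.103), without sham replicate 2 (adjusted p = 0.0582) and without sham replicate 3 (adjusted p = 0.0989).

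The shift of Cyp2a5 itself was called: the effect at day 7 lay 2.31 log2 units below that at day 1, and the effect at day 14 lay 3.06 below it (SE 0.40; limma adjusted p = 0.00228 and 9.56e-05). Of its 50-base stretches 40.8% also occur in other transcripts, 31.01% in the close copy Cyp2a4, so these values may hold reads of both.

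Promoter sequences are shown for Cyp2e1, Cyp2d9, Cyp2d26 and Cyp2a5, Cyp2 genes with unlike courses, since all 4 carry a TATA box letter run 28 to 31 bases before the annotated start. Each is the 250 bases before the start in the direction of transcription (RefSeq, GRCm38.p6), with capitals marking TATAAA and GTTAAT, part of the sequence bound by hepatocyte nuclear factor 1, on either strand (TTTATA and ATTAAC are their reverse forms).
Cyp2e1: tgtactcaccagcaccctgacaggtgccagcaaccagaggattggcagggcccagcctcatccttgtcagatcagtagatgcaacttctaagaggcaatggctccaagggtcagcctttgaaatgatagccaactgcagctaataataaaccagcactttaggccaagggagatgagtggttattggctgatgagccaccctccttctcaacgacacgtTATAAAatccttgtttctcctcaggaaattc
Cyp2d9: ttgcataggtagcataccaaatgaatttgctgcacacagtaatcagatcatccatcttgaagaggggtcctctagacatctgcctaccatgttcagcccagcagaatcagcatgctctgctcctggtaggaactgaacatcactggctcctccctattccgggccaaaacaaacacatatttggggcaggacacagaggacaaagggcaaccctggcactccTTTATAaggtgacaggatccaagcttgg
Cyp2d26: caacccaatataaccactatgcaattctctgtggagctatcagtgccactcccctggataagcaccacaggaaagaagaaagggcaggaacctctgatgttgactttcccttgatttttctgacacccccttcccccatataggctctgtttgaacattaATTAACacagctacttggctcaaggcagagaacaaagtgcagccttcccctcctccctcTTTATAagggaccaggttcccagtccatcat
Cyp2a5: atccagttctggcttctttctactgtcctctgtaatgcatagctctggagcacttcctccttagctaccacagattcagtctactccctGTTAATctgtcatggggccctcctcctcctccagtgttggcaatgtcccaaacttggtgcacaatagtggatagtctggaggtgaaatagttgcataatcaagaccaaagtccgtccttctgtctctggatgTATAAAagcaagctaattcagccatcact
These cover chr7:140763569-140763818 (plus strand), chr15:82452127-82452376 (plus strand), chr15:82794246-82794495 (minus strand) and chr7:26835089-26835338 (plus strand). Promoters were found for 24 of the 34 genes, 25 promoters in all, searched over 300 bases that reach 50 past the start. TATAAA occurred on either strand in 8 of the 25, 32.0%, against 13.6% of 32851 promoters of all genes, and GTTAAT in 4, 16%, against 7.10%. A TATAAA run starting 28 to 31 bases before the start, a window read off these 4 genes, was held by 1.44% of all promoters. AGGTCA, a core motif of nuclear receptors, occurred in 3 of the 25, 12.0%, against 16.3%, and GCGTG, the core bound by the aryl hydrocarbon receptor, in 9, 36.0%, against 32.4%. A match describes the letters of the window and not a bound factor.

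**Figure D3:**
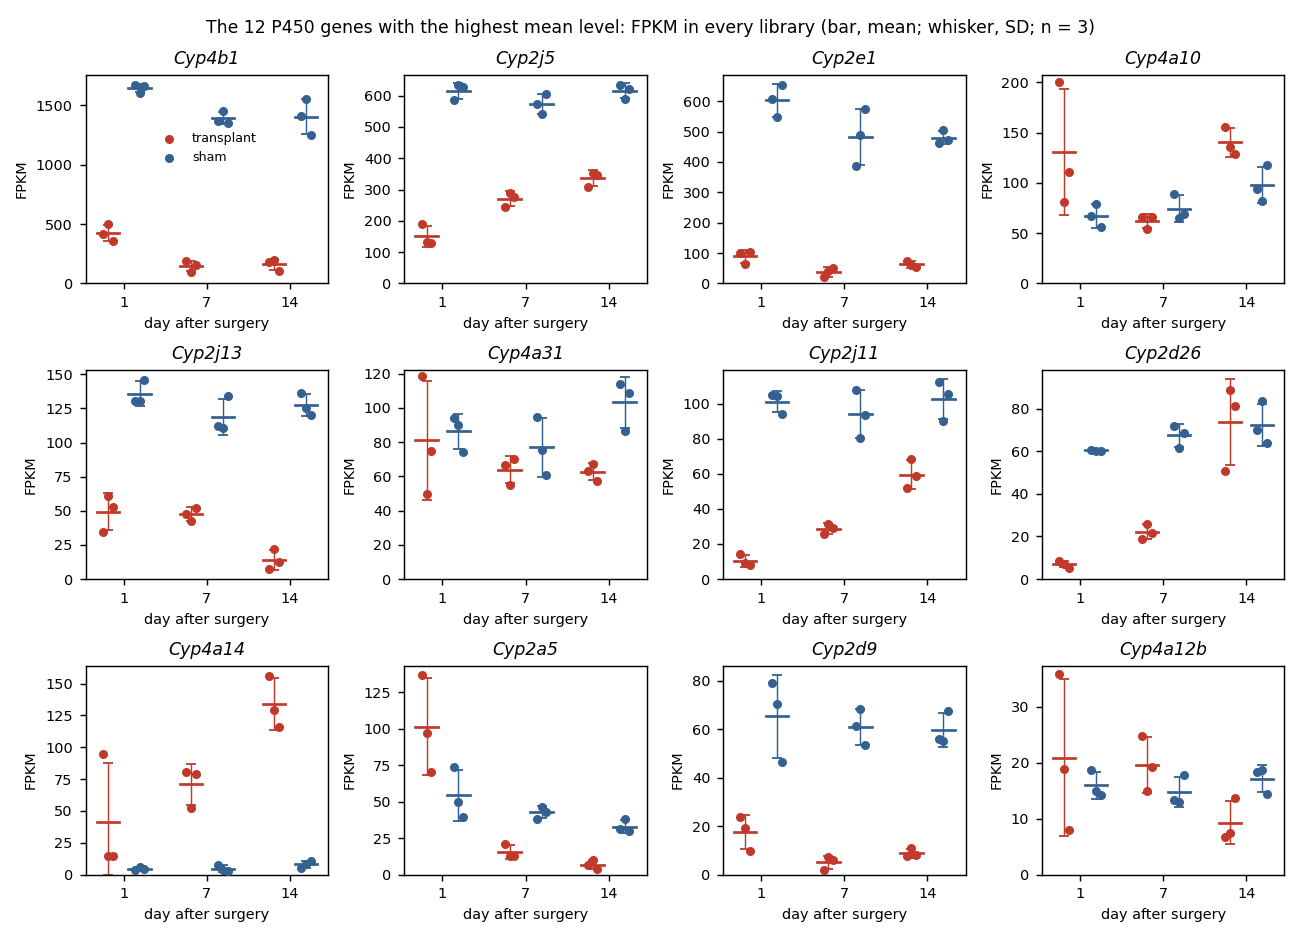
FPKM (y axes, linear, from 0) in every library of the 12 P450 genes with the highest mean, transplant (red) left of sham (blue) at days 1, 7 and 14. Points are libraries, bars means and whiskers SDs that stop at 0 (n = 3); Cyp2d26 overlaps sham at day 14 while Cyp4b1, Cyp2e1 and Cyp2d9 do not.

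The Cyp2j subfamily, a cluster of 6 of these genes on chromosome 4, held both falling and rising genes. Summed over the 6, it stood at 229 ± 23.6, 373 ± 23.5 and 435 ± 39.7 FPKM in transplanted kidneys, against 870.0 ± 26.7, 805 ± 48.4 and 862 ± 36.0 FPKM in sham kidneys, at days 1, 7 and 14. Cyp2j5, an arachidonic acid epoxygenase of the mouse proximal tubule, made up most of it. At day 1 Cyp2j5 had 190.1, 134 and 129 FPKM after transplantation, against 586, 634 and 626 FPKM after sham surgery. On day 7 it had 244, 290.4 and 276 FPKM after transplantation, against 574, 541 and 606 FPKM after sham surgery, and at day 14 it had 308, 353 and 348 FPKM, against 635, 589.7 and 622 FPKM. Every transplant library was below every sham library, by less at each later day. Log2 fold changes were -2.04, -1.09 and -0.87 (SE 0.13; limma adjusted p = 2e-09, 6.09e-06 and 0.000109). The effect differed from that of day 1 by 0.95 at day 7 and 1.17 at day 14 (SE 0.19; adjusted p = 0.005 and 0.000563).

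Cyp2j11 and Cyp2j13, of the same cluster, took different courses. Cyp2j11 had 14.4, 9.08 and 7.83 FPKM in transplant libraries at day 1, against 105, 104 and 94.4 FPKM in sham libraries. By day 7 it had 25.7, 31.6 and 29.1 FPKM after transplantation, against 108, 80.7 and 93.7 FPKM after sham surgery. At day 14 it had 51.9, 68.4 and 58.6 FPKM after transplantation, against 112, 90.5 and 105 FPKM after sham surgery. It stayed below sham without overlap, at 10.3%, 30.6% and 58.1% of the sham mean. On the log2 scale the fold changes were -3.20, -1.67 and -0.78 (SE 0.18; limma adjusted p = 3.26e-10, 1.3e-06 and 0.00334), and the effect moved by 1.53 at day 7 and 2.42 at day 14 relative to day 1 (SE 0.25; adjusted p = 0.00124 and 8.63e-06).

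Cyp2j13 had 34.8, 60.6 and 53.0 FPKM in transplant libraries at day 1, against 130.3, 131 and 146 FPKM in sham libraries. At day 7 the values were 47.9, 42.4 and 52.3 FPKM after transplantation, against 112, 111 and 134 FPKM after sham surgery. At day 14 they were 7.47, 21.8 and 12.4 FPKM after transplantation, against 137, 125 and 120.4 FPKM after sham surgery. Here the transplant libraries lay lowest at day 14, the day on which Cyp2j5 and Cyp2j11 were nearest to sham. The limma fit gave log2 fold changes of -1.47, -1.30 and -3.23 (SE 0.25; limma adjusted p = 0.000145, 0.000587 and 9.18e-08).

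The effect on Cyp2j13 at day 14 lay 1.92 log2 units below that at day 7 and 1.75 below that at day 1 (SE 0.35; limma adjusted p = 0.0174 and 0.00374). The call between days 14 and 7 was lost without filter (adjusted p = 0.0915) and without transplant day 7 replicate 3, sham day 7 replicate 1 or sham day 7 replicate 2 (adjusted p = 0.0509, 0.0547 and 0.0512).

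Cyp2j6 and Cyp2j9 did not fall at any day. Cyp2j6 had 10.2, 13.3 and 13.1 FPKM after transplantation at day 1, against 10.4, 11.2 and 10.2 FPKM after sham surgery. At day 7 it had 20.6, 16.4 and 17.4 FPKM in transplant libraries, against 11.6, 12.1 and 10.1 FPKM in sham libraries, and at day 14 it had 16.4, 17.8 and 22.1 FPKM, against 9.37, 10.3 and 9.95 FPKM. The groups overlapped at day 1 and lay apart afterwards, with transplant above. Log2 fold changes were 0.18, 0.64 and 0.85 (SE 0.15; limma adjusted p = 0.345, 0.00238 and 0.000368), and the call at day 7 was lost with median-of-ratios scaling (0.18, adjusted p = 0.422) while that at day 14 was kept.

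The effect on Cyp2j6 at day 14 lay 0.67 above that at day 1 (limma adjusted p = 0.0478), a call lost under most settings that left out 1 library (adjusted p up to 0.116 without transplant day 14 replicate 3). Cyp2j9 averaged 5.19 ± 1.32, 7.63 ± 1.76 and 6.37 ± 2.26 FPKM in transplanted kidneys, against 5.62 ± 1.10, 5.57 ± 2.53 and 5.07 ± 2.62 FPKM in sham kidneys, and was not called (adjusted p = 0.827, 0.285 and 0.466). Cyp2j7, near 1 FPKM, averaged 0.278 ± 0.481 FPKM after transplantation and 1.64 ± 0.670 FPKM after sham surgery at day 1, a log2 fold change of -1.08 (adjusted p = 0.00873) that was not called without sham replicate 2 (-0.88, adjusted p = 0.0538). With median-of-ratios scaling Cyp2j7 was called lower at days 7 and 14 too (adjusted p = 0.0313 and 0.041). All 6 libraries in which Cyp2j7 reached 1 FPKM were sham libraries, so its calls are not independent of the filter. The 6 Cyp2j genes shared at most 2.32% of their 50-base stretches with other transcripts.

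**Figure D4:**
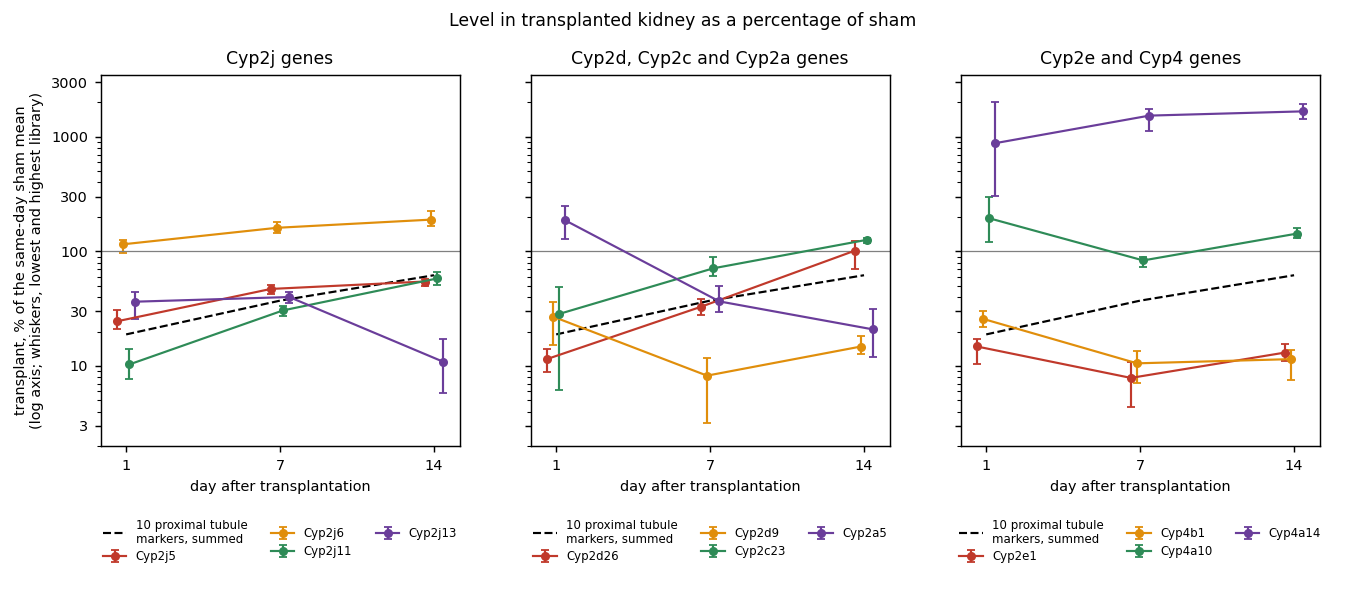
Transplant level as a percentage of the same-day sham mean (y axes, log scale) at days 1, 7 and 14 for 12 P450 genes, with points for means over 3 libraries and whiskers from the lowest to the highest library; the dashed line is the summed level of 10 proximal tubule markers. Cyp2j11 and Cyp2d26 climb with the markers while Cyp2j13, Cyp2a5, Cyp4b1, Cyp2d9 and Cyp2e1 stand at 10.9% to 20.9% on day 14.

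Cyp2c23, an arachidonic acid epoxygenase of the mouse kidney, fell at day 1 alone. It had 3.74, 5.90 and 0.748 FPKM after transplantation at day 1, against 9.89, 16.7 and 9.91 FPKM after sham surgery. On day 7 it had 6.93, 9.66 and 6.67 FPKM in transplant libraries, against 9.70, 14.3 and 8.68 FPKM in sham libraries. On day 14 it had 11.8, 13.1 and 12.6 FPKM in transplant libraries, against 10.8, 11.2 and 7.62 FPKM in sham libraries. The transplant libraries lay below sham at day 1, overlapped it at day 7 and lay above it at day 14. On the log2 scale the fold changes were -1.73, -0.43 and 0.33 (SE 0.35; limma adjusted p = 0.000755, 0.338 and 0.525), and the effect at day 14 differed from that at day 1 by 2.06 (SE 0.50; adjusted p = 0.0125), a call lost with no filter (adjusted p = 0.054).

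Of the remaining Cyp2 genes, Cyp2s1, an epithelial P450 known to be inducible by dioxin, rose at all 3 days. It had 11.1, 11.2 and 7.18 FPKM after transplantation at day 1, against 2.65, 3.12 and 3.48 FPKM after sham surgery. By day 7 it had 11.3, 8.98 and 8.71 FPKM in transplant libraries, against 3.54, 4.23 and 2.75 FPKM in sham libraries, and at day 14 it had 5.64, 6.98 and 4.81 FPKM, against 2.52, 2.31 and 2.5996 FPKM. The groups did not overlap. The limma fit gave log2 fold changes of 1.39, 1.25 and 0.96 (SE 0.20; limma adjusted p = 2.25e-05, 9.57e-05 and 0.0016), and the last was not called after quantile normalization (0.55, adjusted p = 0.0508).

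Among the low Cyp2 genes, Cyp2f2 fell at day 7, while other calls depended on single libraries. Cyp2f2, known from mouse lung for activating naphthalene, averaged 0.504 ± 0.451 FPKM in transplanted kidneys and 1.96 ± 0.718 FPKM in sham kidneys at day 1, and 0.163 ± 0.225 FPKM against 2.17 ± 0.952 FPKM at day 7. Its log2 fold changes were -0.99 and -1.42 (SE 0.36; limma adjusted p = 0.0379 and 0.0052). The call at day 1 was lost without transplant replicate 2 or 3 (adjusted p = 0.0979 and 0.13), without sham replicate 2 or 3 (adjusted p = 0.0633 and 0.139), with no filter and with a pseudocount of 0.1. Cyp2c69, which shared 54.8% of its 50-base stretches with other Cyp2c genes, was called lower at day 7 (-0.96, adjusted p = 0.0213) but not without transplant replicate 1, sham replicate 2 or sham replicate 3 (adjusted p = 0.0623, 0.1 and 0.0659). Cyp2r1, a vitamin D 25-hydroxylase, and Cyp2u1, a fatty acid hydroxylase, stayed between 0.171 and 4.92 FPKM and were called at no day.

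Among the Cyp4a genes, fatty acid omega-hydroxylases in 1 cluster with Cyp4b1 on chromosome 4, Cyp4a14 had the largest rise on the log2(FPKM + 1) scale at every day. With a pseudocount of 0.1 FPKM, Cyp4f18, near 0 in sham kidneys, was above it at day 1 (2.73 against 2.54) and day 7 (4.24 against 4.03). At day 1 Cyp4a14 had 94.4, 14.7 and 14.3 FPKM after transplantation, against 3.72, 5.97 and 4.32 FPKM after sham surgery. At day 7 it had 80.9, 52.4 and 79.2 FPKM in transplant libraries, against 7.67, 3.50 and 2.69 FPKM in sham libraries. At day 14 it had 156, 129 and 116 FPKM in transplant libraries, against 4.94, 8.16 and 10.9 FPKM in sham libraries. No transplant library reached down to sham, and transplant replicate 1 stood far above the other two at day 1. Log2 fold changes were 2.35, 3.75 and 3.95 (SE 0.50; limma adjusted p = 0.00111, 1.64e-05 and 1.81e-05), and the first was 1.47 without that library (adjusted p = 0.00169). Changes between days were not called (adjusted p = 0.332, 0.946 and 0.169). Cyp4a14 shared 0.25% of its 50-base stretches with any other transcript.

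Cyp4a10, like Cyp4a14 a known target of the nuclear receptor PPAR-alpha, was called higher at day 1. It had 200.3, 80.7 and 111 FPKM after transplantation at day 1, against 66.6, 79.1 and 55.8 FPKM after sham surgery. On day 7 it had 66.3, 54.3 and 65.9 FPKM in transplant libraries, against 89.3, 64.9 and 69.3 FPKM in sham libraries. On day 14 it had 156, 136 and 129 FPKM in transplant libraries, against 93.5, 82.3 and 118 FPKM in sham libraries. The transplant libraries were above sham at days 1 and 14 and overlapped it at day 7. On the log2 scale the fold changes were 0.86, -0.25 and 0.52 (SE 0.24; limma adjusted p = 0.00807, 0.417 and 0.111). Without transplant replicate 1 of day 1 the first was 0.50 (adjusted p = 0.0486), and with median-of-ratios scaling Cyp4a10 was not called at day 1 (0.48, adjusted p = 0.181) and was called lower at day 7 (-0.74, adjusted p = 0.0467). At day 14 it was called higher with the same sum in every library (0.69, adjusted p = 0.0285), with only the groups compared in the fit (adjusted p = 0.0477) and without transplant replicate 1 of day 1 (adjusted p = 0.0327). With median-of-ratios scaling the day 14 value of Cyp4a10 was 0.20 (limma adjusted p = 0.639).

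The other Cyp4a genes did not share this rise. Cyp4a31 averaged 81.0 ± 34.7, 63.9 ± 7.93 and 62.7 ± 5.002 FPKM in transplanted kidneys at the 3 days, against 86.2 ± 10.4, 76.8 ± 16.98 and 103 ± 14.6 FPKM in sham kidneys. It was called lower at day 14 (-0.70, SE 0.23; limma adjusted p = 0.03), a call lost without transplant replicate 1 or 3 and without sham replicate 1 or 3 of that day (adjusted p = 0.063, 0.0828, 0.0978 and 0.0809). With median-of-ratios scaling it was also called at day 7 (adjusted p = 0.0361). Cyp4a12b averaged 20.9 ± 14.0, 19.6 ± 5.002 and 9.29 ± 3.78 FPKM in transplanted kidneys, against 15.98 ± 2.44, 14.7 ± 2.67 and 17.2 ± 2.35 FPKM in sham kidneys, and was not called (adjusted p = 0.767, 0.402 and 0.0759), though it was called lower at day 14 with median-of-ratios scaling (adjusted p = 0.0263). Cyp4a32 lay between 1.89 and 8.20 FPKM in all 18 libraries and was called at no day (adjusted p = 0.801, 0.341 and 0.786).

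Reads of these genes are not fully separable: Cyp4a12b shared 49.5%, Cyp4a32 46.8%, Cyp4a10 30.5% and Cyp4a31 21.7% of their 50-base stretches with close copies. Summed over the 5 Cyp4a genes, transplanted kidneys held 280.4 ± 155, 219.8 ± 35.4 and 351 ± 33.1 FPKM, against 179.6 ± 21.5, 175 ± 31.4 and 232 ± 26.5 FPKM in sham kidneys. The Cyp4a sum was thus 1.56, 1.26 and 1.51 times that of sham while the Cyp4b1 level next to it in the genome was 25.8%, 10.6% and 11.5% of sham. The Cyp4a sums of transplant and sham libraries overlapped at days 1 and 7. At day 1 the transplant sums were 457, 168 and 216 FPKM. Of these sums, Cyp4a14 alone averaged 41.2, 70.8 and 133.7 FPKM after transplantation, against 4.67, 4.62 and 8.01 FPKM after sham surgery.

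In the Cyp4f subfamily, whose enzymes hydroxylate leukotrienes and fatty acids, rises were found at days 1 and 7. Cyp4f16 averaged 6.30 ± 1.55 and 7.55 ± 3.32 FPKM in transplanted kidneys, against 2.54 ± 0.876 and 2.51 ± 1.39 FPKM in sham kidneys, at days 1 and 7, with log2 fold changes of 1.05 and 1.28 (SE 0.34; limma adjusted p = 0.0194 and 0.00622). Both calls were lost with median-of-ratios scaling (adjusted p = 0.0994 and 0.06), and the first also without transplant replicate 2 or sham replicate 2 (adjusted p = 0.0793 and 0.0957). Cyp4f17 averaged 7.09 ± 1.99 FPKM after transplantation and 2.82 ± 0.931 FPKM after sham surgery at day 1 (1.08, SE 0.25; adjusted p = 0.00198). At day 7 its log2 fold change was 0.62 (adjusted p = 0.0507), called when every library was scaled to the same sum (adjusted p = 0.00742). With median-of-ratios scaling the day 7 value of Cyp4f17 was 0.25 (adjusted p = 0.503). Cyp4f13, the most abundant Cyp4f gene, averaged 14.2 ± 4.50, 11.4 ± 2.002 and 11.6 ± 3.04 FPKM after transplantation, against 10.6 ± 2.601, 12.4 ± 2.87 and 10.8 ± 0.696 FPKM after sham surgery, and was called at no day (adjusted p = 0.213, 0.743 and 0.873).

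Cyp4f18, a leukotriene hydroxylase of mouse neutrophils, was near 0 in sham kidneys. It had 0.555, 0.258 and 1.22 FPKM after transplantation at day 1, against 0, 0.00624 and 0 FPKM after sham surgery. By day 7 it had 2.02, 1.81 and 2.51 FPKM in transplant libraries, against 0, 0 and 0.0580 FPKM in sham libraries, and at day 14 it had 1.19, 0.368 and 0.140 FPKM, against 0, 0.418 and 0 FPKM. Transplant libraries lay above sham at days 1 and 7. It was called at day 7 (log2 fold change 1.61, SE 0.28, limma adjusted p = 0.000213) and not at days 1 and 14 (adjusted p = 0.0516 and 0.272). Without transplant replicate 2 of day 1 it was called at day 1 (adjusted p = 0.0304). All 5 libraries in which Cyp4f18 reached 1 FPKM were transplant libraries, so it passed the filter through that group alone. Its call and its lack of overlap are therefore not independent of the filter.

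Cyp4v3, a fatty acid hydroxylase, rose at all 3 days. It had 2.96, 4.37 and 3.69 FPKM after transplantation at day 1, against 0.653, 0.665 and 1.36 FPKM after sham surgery. At day 7 it had 5.04, 4.76 and 4.85 FPKM in transplant libraries, against 0.744, 1.19 and 1.31 FPKM in sham libraries, and at day 14 it had 4.40, 3.44 and 3.21 FPKM, against 0.777, 1.30 and 1.66 FPKM. The groups lay apart throughout. The limma fit gave log2 fold changes of 1.31, 1.51 and 1.07 (SE 0.22; limma adjusted p = 0.000117, 4.06e-05 and 0.00153).

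Cyp1b1, which acts on oestrogens and is known to be induced through the aryl hydrocarbon receptor, also rose at all 3 days. At day 1 Cyp1b1 had 4.78, 7.59 and 11.3 FPKM after transplantation, against 2.73, 2.42 and 4.32 FPKM after sham surgery. On day 7 it had 23.7, 15.7 and 14.6 FPKM in transplant libraries, against 3.50, 2.39 and 3.53 FPKM in sham libraries. At day 14 it had 19.6, 10.6 and 13.6 FPKM in transplant libraries, against 3.38, 3.87 and 3.14 FPKM in sham libraries. Every transplant library lay above every sham library, by most at day 7. Log2 fold changes were 1.06, 2.18 and 1.77 (SE 0.27; limma adjusted p = 0.00486, 8.45e-06 and 0.000136); the first was not called after quantile normalization (0.65, adjusted p = 0.0818), and the changes between days were not called (adjusted p = 0.117, 0.721 and 0.278).

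The summed markers of stroma and of macrophages were higher at all 3 days, as was Cyp1b1. The 6 fibroblast and mural markers totalled 63.0 to 90.0, 111 to 253 and 136 to 178 FPKM in transplant libraries at days 1, 7 and 14, against 18.2 to 30.5, 25.5 to 32.4 and 28.8 to 33.0 FPKM in sham libraries, with 5, 6 and 5 of 6 called higher, or 3, 5 and 5 with median-of-ratios scaling. The sixth, Dcn, was lower at day 1 (3.84 ± 1.12 FPKM after transplantation, against 6.57 ± 1.55 FPKM after sham surgery). The 7 macrophage markers totalled 53.1 to 55.7, 227 to 473 and 145 to 294 FPKM in transplant libraries, against 19.1 to 26.3, 18.5 to 32.7 and 22.9 to 27.4 FPKM in sham libraries, with 2, 7 and 7 of 7 called higher, or 1, 7 and 6 with median-of-ratios scaling. Csf1r was lower at day 1 (3.78 ± 0.317 FPKM after transplantation, against 7.92 ± 0.551 FPKM after sham surgery). None of these markers was at 0 in all libraries. Their part in the rise of Cyp1b1, or of Cyp4f18 and Cyp4v3, was not tested.

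Among the genes of single-member subfamilies, Cyp27a1, the mitochondrial sterol 27-hydroxylase, fell at all 3 days. It had 8.15, 7.47 and 6.34 FPKM after transplantation at day 1, against 15.6, 12.8 and 13.0 FPKM after sham surgery. By day 7 it had 9.83, 10.7 and 9.70 FPKM in transplant libraries, against 16.9, 13.4 and 14.7 FPKM in sham libraries, and at day 14 it had 7.25, 7.53 and 10.96 FPKM, against 11.6, 15.6 and 13.7 FPKM. The groups did not overlap, though at day 14 the nearest libraries were close. On the log2 scale the fold changes were -0.83, -0.53 and -0.62 (SE 0.17; limma adjusted p = 0.000658, 0.0174 and 0.00977). The call at day 7 was lost without transplant replicate 3 or sham replicate 1 (adjusted p = 0.051 and 0.0755) and with the same sum in every library (-0.25, adjusted p = 0.232), and that at day 14 without sham replicate 2 (adjusted p = 0.0514).

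Cyp20a1, a P450 with no agreed substrate, rose at days 1 and 7. It averaged 13.6 ± 3.16, 11.8 ± 1.81 and 9.18 ± 0.670 FPKM in transplanted kidneys, against 5.40 ± 1.19, 5.31 ± 0.490 and 6.12 ± 1.25 FPKM in sham kidneys. The limma fit gave log2 fold changes of 1.18, 1.02 and 0.53 (SE 0.19; limma adjusted p = 9.75e-05, 0.000521 and 0.0501), and the last was called with the same sum in every library (adjusted p = 0.0136). With median-of-ratios scaling that day 14 value was 0.24 (adjusted p = 0.385). Cyp39a1, an oxysterol hydroxylase, averaged 4.48 ± 0.977 FPKM after transplantation and 2.34 ± 0.413 FPKM after sham surgery at day 14 (0.70, SE 0.21; adjusted p = 0.0201), a call lost with median-of-ratios scaling (adjusted p = 0.137) and without transplant replicate 2, sham replicate 1 or sham replicate 3 (adjusted p = 0.0852, 0.0688 and 0.0582). Cyp26b1, which breaks down retinoic acid, and Cyp46a1, the cholesterol 24-hydroxylase, lay between 0 and 4.01 FPKM and were called at no day, though Cyp46a1 was called higher at day 14 without transplant replicate 3 (adjusted p = 0.0233).

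P450 enzymes depend on redox partners, and 9 such genes were examined from a list. Cyb5a, cytochrome b5, fell at all 3 days, to 201 ± 27.1, 136 ± 9.02 and 161 ± 28.4 FPKM in transplanted kidneys, against 393 ± 61.4, 358 ± 30.9 and 319.8 ± 36.2 FPKM in sham kidneys (log2 fold changes -0.96, -1.39 and -0.999, SE 0.15; limma adjusted p = 7.05e-05, 2.01e-06 and 0.000122). Cyb5b, the outer mitochondrial membrane form, fell at day 1 (-1.05, adjusted p = 1.13e-05) and, with median-of-ratios scaling alone, was called at days 7 and 14 too (adjusted p = 0.00334 and 0.0336). Cyb5r3, a cytochrome b5 reductase, rose at days 1 and 7 (1.07 and 0.68, adjusted p = 0.000114 and 0.00589), the second call being lost with median-of-ratios scaling.

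Por, the reductase that serves microsomal P450 enzymes, averaged 76.9 ± 15.9, 59.7 ± 1.55 and 47.5 ± 10.9 FPKM in transplanted kidneys, against 75.1 ± 11.3, 60.9 ± 2.72 and 65.3 ± 6.09 FPKM in sham kidneys. It was called lower at day 14 only (-0.47, SE 0.16; limma adjusted p = 0.0386), and at day 7 too with median-of-ratios scaling. The mitochondrial electron carriers Fdx1, Fdx1l and Fdxr and the heme-binding Pgrmc1 and Pgrmc2 were called at no day, with log2 fold changes from -0.68 to 1.30. In all 1, 1 and 0 of the 9 partners were higher and 2, 1 and 2 lower at the 3 days, or 1, 0 and 0 higher and 3, 5 and 4 lower with median-of-ratios scaling, under which Fdx1 and Pgrmc1 were called lower at 2 days each. The list's median log2 fold change was -0.11, -0.14 and -0.12, against 0.31, 0.41 and 0.27 over all genes. The counts of this list and of those below stand beside the shares of all genes at days 1, 7 and 14. Of all genes 29.6%, 35.5% and 22.3% were called higher and 9.56%, 6.01% and 5.12% lower. With median-of-ratios scaling the shares were 14.7%, 11.6% and 11.4% higher and 15.5%, 12.8% and 11.2% lower.

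Of 21 genes for regulators of P450 transcription, 17 were tested; 3, 5 and 3 were higher and 4, 0 and 2 lower at days 1, 7 and 14, or 0, 2 and 1 higher and 8, 4 and 6 lower with median-of-ratios scaling, and the median was -0.19, 0.08 and -0.22. Hnf4a, a nuclear receptor of proximal tubule and liver, averaged 71.5 ± 29.99 FPKM after transplantation and 140.5 ± 3.07 FPKM after sham surgery at day 1 (-1.07, SE 0.23; limma adjusted p = 0.00106) and was called lower at day 14 as well (-0.82, adjusted p = 0.0123). Hlf, a factor of the clock-driven PAR bZIP group, averaged 4.47 ± 2.83 FPKM after transplantation and 19.7 ± 1.72 FPKM after sham surgery at day 1 (-2.05, adjusted p = 1.8e-05). Nr1h4, the bile acid receptor, fell at day 14 (-1.13, adjusted p = 0.00109). Ahr, the aryl hydrocarbon receptor, was called higher at day 1 (0.57, adjusted p = 0.0332), not with median-of-ratios scaling, and rose at days 7 and 14 to 4.22 ± 0.770 and 3.77 ± 0.685 FPKM in transplanted kidneys, against 1.33 ± 0.404 and 1.35 ± 0.239 FPKM in sham kidneys (1.17 and 1.02, adjusted p = 0.00025 and 0.00135). Nfe2l2, the oxidant-response factor, was called higher at the 3 days (0.67, 0.95 and 0.63), at days 1 and 14 not with median-of-ratios scaling, and Arnt, the partner of Ahr, was called higher at the 3 days (0.51, 0.61 and 0.65; adjusted p = 0.0248, 0.00882 and 0.00888), at none of them with that scaling.

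Of 5 genes listed as aryl hydrocarbon receptor targets 3 were tested; 2, 2 and 1 were higher, Nfe2l2 among them each time, or 1, 1 and 0 with median-of-ratios scaling, and Nqo1, a quinone reductase, rose at day 1 (0.98, limma adjusted p = 0.000587) and at day 7 (0.62, adjusted p = 0.0161), the second not with median-of-ratios scaling. Targets of PPAR-alpha, 16 genes, split by day, with 9, 2 and 1 higher and 2, 4 and 3 lower, or 5, 0 and 1 higher and 4, 8 and 7 lower with median-of-ratios scaling, and a median of 0.44, -0.10 and -0.02. Plin2, a lipid droplet protein, averaged 719 ± 267 FPKM after transplantation and 23.0 ± 1.86 FPKM after sham surgery at day 1 (4.84, adjusted p = 8.54e-11). Acadm, an enzyme of fatty acid oxidation, fell at all 3 days (-1.55, -1.17 and -1.20), days on which Cyp4a14 was above sham, and Ehhadh, a peroxisomal enzyme of the same process, fell at day 7 (-1.57, adjusted p = 0.000269).

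Enzymes that share substrates with the P450 family also moved. Ephx2, which hydrolyses fatty acid epoxides, fell to 67.4 ± 19.5, 58.5 ± 6.03 and 77.2 ± 11.1 FPKM in transplanted kidneys, against 176 ± 6.85, 159.7 ± 18.9 and 162 ± 10.7 FPKM in sham kidneys (-1.41, -1.43 and -1.07, SE 0.16; limma adjusted p = 2.04e-06, 2.93e-06 and 0.000118). Ephx1, the microsomal epoxide hydrolase, rose (0.66, 1.49 and 1.83, adjusted p = 0.00757, 6.71e-06 and 1.49e-06), at day 1 not with median-of-ratios scaling. The flavin monooxygenases Fmo5 and Fmo2 fell at all 3 days, Fmo5 by 2.56, 2.86 and 2.69 on the log2 scale. Maoa, a mitochondrial amine oxidase, rose (1.58, 0.95 and 0.84). Of 9 other oxidases 6 were tested, with 1 higher at each day, 3, 2 and 2 lower, or 4, 4 and 3 lower with median-of-ratios scaling, and a median of -1.18, -0.59 and -0.43.

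In the retinoid pathway, whose end product Cyp26b1 breaks down, 10 of 15 genes were tested; 3, 6 and 5 were higher and 2, 1 and 0 lower, or 3, 4 and 4 higher and 2, 2 and 0 lower with median-of-ratios scaling, where 29.6%, 35.5% and 22.3% of all genes were called higher in the unscaled fit. The list's median was 0.36, 0.81 and 0.67. Aldh1a2, a retinoic acid synthase, averaged 15.6 ± 3.001, 14.0 ± 5.38 and 14.5 ± 7.75 FPKM in transplanted kidneys, against 0.552 ± 0.269, 0.403 ± 0.502 and 0.653 ± 0.215 FPKM in sham kidneys (3.42, 3.41 and 3.099, SE 0.34; limma adjusted p = 3.73e-07, 7.27e-07 and 4.5e-06). Aldh1a1, of the same group, rose at all 3 days (2.70, 2.43 and 1.76), and Stra6, a retinol transporter, rose at days 7 and 14 (1.73 and 2.71). Dhrs3, a retinal reductase, fell at day 1 (-1.99). Of 11 steroid synthesis partners 9 were tested, with 2, 3 and 0 higher and 5, 4 and 3 lower, or 2, 0 and 0 higher and 5, 4 and 4 lower with median-of-ratios scaling, and a median of -0.75, -0.02 and -0.13. Hsd3b2, a 3-beta-hydroxysteroid dehydrogenase, fell at all 3 days (-2.72, -2.55 and -1.82), as did Srd5a2, a steroid 5-alpha-reductase (-1.43, -1.15 and -0.997), and Hsd3b6 (-1.06, -0.82 and -0.65), while Hsd3b4 fell at day 1 (-1.81). Tspo, a mitochondrial cholesterol-binding protein, rose at days 1 and 7 (1.63 and 0.98, adjusted p = 3.83e-06 and 0.00087) and Hsd11b2, which inactivates glucocorticoid in the distal nephron, at day 7 (0.83, adjusted p = 0.00615); the day 7 calls of both were lost with median-of-ratios scaling.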

How the data were processed

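Bulk RNA-seq values of 18 mouse kidney libraries, 3 in each of 6 groups, were used. The authors deposited FPKM values per gene in 1 table of 54848 rows; per the submitters' processing notes, DESeq2 and the mm10 build were used, while an aligner, a quantifier and an annotation release were not named in those notes. No counts were used, so depth and counting error are unknown. All value columns were matched to samples by title.

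The 15278 genes that reached 1 FPKM in 3 or more libraries entered one limma model (version 3.58.1, R 4.3.3) of log2(FPKM + 1) over all 6 groups, with robust moderation, no block and Benjamini-Hochberg adjustment over all genes at 0.05. Tables and figures were made with Python 3.11.15, pandas 2.3.3 and matplotlib 3.10.9. On simulated day 1 data of 15278 genes, 8%, 68%, 90% and 96% of genes changed by 0.5, 1, 2 and 4 log2 units were recovered. The simulation changed 50 genes per size, all above about 1 FPKM in sham, whereas the real day 1 fit called 5977 genes. These shares therefore need not hold for the real data or for low genes. Other pseudocounts, scalings, filters, a replicate block, fits of the compared groups alone and leaving out each library were tried.

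The P450 genes and all lists were chosen with earlier results of these data known. Genes named were members with a mean of at least 5 FPKM, the called members with the largest changes by day and between days, all redox partners, and, per other pathway list and day, at most 3 called genes taken by adjusted p. Sequence sharing was counted as the percentage of 50-base stretches of a gene's transcript found in transcripts of other genes (GENCODE M21). Some genes that this rule takes are not reported here.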

Additional observations from a re-analysis of the deposited data

Results flagged for a closer look

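The transplant effect itself changed between days for 8 of the 34 P450 genes. The values are differences of log2 fold changes, later day minus earlier day, from the limma fit over all genes with n = 3 libraries a group. Cyp2a5 went down, with differences of -2.31 for day 7 against day 1 and -3.06 for day 14 against day 1 (adjusted p = 0.00228 and 9.56e-05). Cyp4b1 went the same way, with -1.32 and -1.19 (adjusted p = 0.0176 and 0.0177). Cyp2j13 went down late, with -1.92 for day 14 against day 7 and -1.75 for day 14 against day 1 (adjusted p = 0.0174 and 0.00374). Cyp2d26 went up at each step, by 1.40 for day 7 against day 1, 1.56 for day 14 against day 7 and 2.96 for day 14 against day 1 (adjusted p = 0.00412, 0.00789 and 1.99e-06). Cyp2j11 went up by 1.53 for day 7 and 2.42 for day 14 against day 1 (adjusted p = 0.00124 and 8.63e-06), and Cyp2j5 by 0.95 and 1.17 (adjusted p = 0.005 and 0.000563). For day 14 against day 1, Cyp2c23 went up by 2.06 and Cyp2j6 by 0.67 (adjusted p = 0.0125 and 0.0478).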

How the results depend on the processing

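Of 3240 values recomputed for the 34 genes under other settings, 3118 kept their side of the threshold, 76 were no longer called and 46 became called. With a call, 0 changed direction. The 3118 include values called in neither fit whose direction changed, such as Cyp2j6 at day 1 (0.18, and -0.17 with median-of-ratios scaling). With no filter on low genes the members whose effect changed between days numbered 0 instead of 2 for day 14 against day 7, and 5 instead of 8 for day 14 against day 1; more genes were then tested. The summed level relative to sham was 0.348, 0.299 and 0.372 at days 1, 7 and 14. It was 0.269, 0.212 and 0.297 with median-of-ratios scaling, 0.427, 0.457 and 0.572 without Cyp4b1, the most abundant member, and, with the same sum in every library, 0.369 at day 7 and 0.419 at day 14; the cause was not tested. Leaving out each library in turn gave 0.314 to 0.374, 0.292 to 0.310 and 0.360 to 0.385. It gave 7 to 10 genes higher and 9 to 11 lower at day 1, 8 to 10 and 10 to 12 at day 7, and 5 to 8 and 8 to 11 at day 14. Between days it gave 5 to 7, 1 to 3 and 7 to 9 members, and 0 between sham groups. Same-numbered transplant and sham libraries correlated between -0.041 and 0.101 in their deviations, over 0.1 in 1 of 9 pairs. Libraries with different numbers correlated between -0.105 and 0.111. The labels state no pairing, and this check cannot exclude one. With the replicate block the counts were 9 higher and 11 lower, 9 and 11, and 7 and 9 at the 3 days, and 5, 2 and 7 between days, against 8 for the last without it. Depth is unknown, so no limit of detection can be given for the low genes.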

Other observations

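Other genes known to be expressed in mouse kidney under androgen control were looked at after their values had been seen. Kap, the kidney androgen-regulated protein of the proximal tubule, averaged 7008 ± 1654, 1129 ± 196 and 299 ± 88.3 FPKM in transplanted kidneys at days 1, 7 and 14, against 20332 ± 2526, 18893 ± 4100.2 and 18432 ± 1663 FPKM in sham kidneys (SD, n = 3). Its log2 fold changes were -1.56, -4.06 and -5.98 (limma adjusted p = 1.5e-05, 2.52e-10 and 1.52e-12). Slco1a1, an organic anion transporter, fell by 2.40, 4.87 and 5.68 on the log2 scale (adjusted p = 1.42e-07, 5.04e-11 and 4.33e-12). Odc1, ornithine decarboxylase, fell at day 14, to 136 ± 30.2 FPKM in transplanted kidneys, against 318 ± 16.3 FPKM in sham kidneys (-1.24, adjusted p = 0.000426), and was called lower at days 1 and 7 with median-of-ratios scaling alone (-0.74 and -0.91, adjusted p = 0.0115 and 0.00341). Kap and Slco1a1 were thus lower at day 14 than at day 1 relative to sham, by 4.42 and 3.27 log2 units, while the summed proximal tubule markers were nearer to sham. Between these days the effect was called higher for 8 of the 10 markers and lower for 1. Slc7a13 averaged 16.3 and 7.02 FPKM after transplantation at days 1 and 14, against 367 and 315 FPKM after sham surgery. Slc22a6 averaged 65.6 and 40.1 FPKM, against 154 and 141 FPKM.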
